A study of Mus musculus with 12 samples.

Results

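Whole kidneys of 12 male C57BL6 mice, aged 8 weeks, were profiled by RNA-Seq, and 10 genes that are widely used as markers of tubular injury were followed in them: *Havcr1*, *Lcn2*, *Clu*, *Krt8*, *Krt18*, *Spp1*, *Vcam1*, *Sox9*, *Cd44* and *Timp1*. They were chosen by name, as 10 of the 55401 genes in the files, and the question was whether SK-124 shows early signs of tubular injury. The 6 vehicle mice received 15% 2-hydroxypropyl-beta-cyclodextrin by a single intraperitoneal injection, and the 6 SK-124 mice received SK-124, a selective SIK2/SIK3 inhibitor, at 40 mg/kg by the same route. No separate time of kidney collection is given for these libraries in the sources used here. Each mouse gave 1 library, and the labels give the same strain and sex for all mice.

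An injured kidney tubule cell loses its brush border and switches on genes that the resting nephron keeps low. *Havcr1* encodes KIM-1, a surface receptor with which injured proximal tubule cells take up dying neighbours, and *Lcn2* encodes NGAL, a secreted protein that binds iron-carrying siderophores and is also stored in neutrophil granules. *Clu* encodes the secreted chaperone clusterin, *Krt8* and *Krt18* encode a pair of keratins that form one filament, *Spp1* encodes osteopontin, *Vcam1* an adhesion molecule for leukocytes, *Sox9* a transcription factor of regenerating tubules, *Cd44* a receptor for hyaluronan and osteopontin, and *Timp1* an inhibitor of matrix metalloproteinases. In bulk tissue, fewer cells of a type and less RNA per cell cannot be told apart.

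SK-124 raised 4 of the 9 markers that could be tested: *Lcn2*, *Vcam1*, *Spp1* and *Clu*. The increases ranged from 1.22-fold for *Clu* to 1.84-fold for *Lcn2*. *Havcr1*, *Krt18*, *Krt8*, *Sox9* and *Cd44* did not pass the test, and *Timp1* had too few reads to enter it. None of the 9 fell, 0 by edgeR, 0 at an unadjusted p under 0.05 and 0 by DESeq2.

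Levels are CPM, reads scaled to a fixed library total with TMM, and are compared between mice for 1 gene at a time. Differences are log2 fold changes of SK-124 over vehicle from edgeR's quasi-likelihood test, with the Benjamini-Hochberg adjusted p (FDR) over the 14159 genes kept by edgeR's filterByExpr. A gene was called at an FDR under 0.05. Among all genes tested, 10.8% were called higher and 13.5% lower, so 4 of 9 markers called higher is read against the first of these shares. The markers and gene lists were chosen with earlier results of these data known, so these counts describe the lists and do not test them. All 6 SK-124 mice lay above all 6 vehicle mice for 6.32% of the genes tested, and below them for 6.65%. Not 1 of the 10 markers separated the groups in this way.

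Totals ran from 19244227 to 19771802 expected counts per mouse. The 10 genes with the most counts held 39.9% to 43.2% of the reads in vehicle mice, 44.4% to 46.8% in SK-124 mice 1 to 3 and 38.6% to 40.2% in SK-124 mice 4 to 6. Vehicle mouse 3 stood further from its group than the others, with a chi-square per degree of freedom of 20.7 to 26.6 against the other vehicle mice, which differed from each other by 4.69 to 9.10. SK-124 mice 1 and 2 differed from SK-124 mice 4 to 6 by 20.1 to 32.5 on the same scale. *Cyp27b1* and *Cyp24a1*, the vitamin D enzymes that the study follows, had log2 fold changes of 2.56 (FDR = 2.35e-07) and -2.32 (FDR = 0.00154) in edgeR's test, with *Cyp27b1* higher in 6 of 6 mice than in any vehicle mouse.

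Before treatment effects, the markers spanned a wide range of levels. On the TPM scale, which divides reads by transcript length and so allows genes to be compared, the mean level in vehicle mice was 296 for *Spp1* and 177 for *Clu*. The keratins followed with 23.6 for *Krt8* and 7.24 for *Krt18*. *Lcn2* had a TPM of 3.32, *Havcr1* of 1.44 and *Vcam1* of 1.43. *Timp1*, *Cd44* and *Sox9* lay at the bottom with 0.290, 0.223 and 0.153. *Spp1* and *Clu* are made by the healthy distal nephron as well as by injured cells. The ranges over mice overlapped between the neighbours *Lcn2* and *Havcr1*, *Havcr1* and *Vcam1*, *Timp1* and *Cd44*, and *Cd44* and *Sox9*, and these pairs have no order beyond their spread. The remaining neighbours in the order did not overlap.

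*Lcn2* (ENSMUSG00000026822.14, chr2:32384633-32388252 on the minus strand, GRCm38) had a CPM of 1.85 at the lowest, 2.58 at the median and 3.37 at the highest in vehicle mice. In SK-124 mice these values were 2.98, 4.71 and 6.23. The means were 2.55 ± 0.597 and 4.68 ± 1.27 (SD, n = 6 each). Mice 1 and 3 to 6 of the SK-124 group lay above the highest vehicle mouse, whereas mouse 2 lay inside the vehicle range, so 5 of 6 stood clear. *Lcn2* thus rose 1.84-fold, by 0.88 ± 0.19 on the log2 scale (estimate ± standard error, FDR = 0.00207, edgeR), and an exact two-sided permutation of log2(CPM + 0.5) gave p = 0.00649, where 0.00216 is the smallest value that 924 splits of 12 mice allow. With only SK-124 mice 1 to 3, the log2 fold change was 0.71 and the FDR 0.0528.

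Because NGAL is also a neutrophil product, the neutrophil markers were read beside it. Their summed CPM over 6 genes ran from 0.148 to 1.14 in vehicle mice and from 1.95 to 6.68 in SK-124 mice. *S100a8* and *S100a9*, subunits of calprotectin, rose by 3.10 and 3.16 on the log2 scale (FDR = 0.000108 and 1.87e-05, edgeR) and were the 2 of 6 that passed the expression filter. Without a low-count filter edgeR tested all 6 and called 4 higher. *Ly6g*, which defines mature mouse neutrophils, never exceeded 2 expected counts per mouse, *Camp* at most 1 and *Ngp* at most 5. *Mmp8*, a neutrophil collagenase, averaged 0.0408 CPM in vehicle and 0.955 CPM in SK-124 mice. The part of these cells in the *Lcn2* difference was not tested.

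*Vcam1* (ENSMUSG00000027962.14, chr3:116109949-116129688, minus strand) had a CPM of 3.42 at the lowest, 5.06 at the median and 6.21 at the highest in vehicle mice. In SK-124 mice the values were 5.84, 7.32 and 10.9. Mouse 4 was the highest of the SK-124 group, and mice 2 and 5 fell inside the vehicle range, which left 4 of 6 above it. *Vcam1* rose 1.55-fold, or by 0.63 ± 0.16 on the log2 scale (FDR = 0.00625, edgeR), with an exact permutation p of 0.00649. With limma on log2(TPM + 1) the difference was 0.29 and the FDR 0.0986. An annotated antisense gene, *Gm43109*, overlaps *Vcam1*, and the use of strand in counting is not given in the sources used here.

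VCAM-1 is also made by activated endothelium, so endothelial markers were read beside it. Of 6 endothelial markers 0 were called higher and 2 lower by edgeR, beside 10.8% and 13.5% of all genes. At an unadjusted p under 0.05 1 was higher, and DESeq2 called 0 higher. The 2 that fell were *Kdr* and *Tek*, which encode the receptors for VEGF and angiopoietins, by 0.85 and 0.66 on the log2 scale (FDR = 0.000647 and 0.000843, edgeR). The summed CPM of the 6 was 278 to 367 in vehicle and 222 to 346 in SK-124 mice. *Pecam1* and *Cdh5* averaged 30.8 and 29.9 CPM in vehicle mice and 32.4 and 36.6 CPM in SK-124 mice. *Emcn* and *Plvap* went the other way, from 60.0 and 158.5 CPM in vehicle mice to 50.9 and 136.6 CPM in SK-124 mice. The median log2 fold change of the 6 was -0.23. Which cells carried the *Vcam1* reads was not tested.

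*Spp1* (ENSMUSG00000029304.14, chr5:104435118-104441050, plus strand) was the most abundant marker. Its CPM was 368 at the lowest, 384 at the median and 415 at the highest in vehicle mice, against 409, 503 and 615 in SK-124 mice. The SK-124 group fell into a low pair, mice 1 and 2 at 409 and 410.2, which lay inside the vehicle range, and mice 3 to 6 at 498 to 615, which lay above it. Over all mice the increase was 1.28-fold, a log2 value of 0.36 ± 0.085 (FDR = 0.00521, edgeR), with an exact permutation p of 0.00649. Scaling by library totals only left 0.25 with an FDR of 0.101, limma on log2(TPM + 1) 0.19 with 0.363, and SK-124 mice 1 to 3 alone 0.20 with 0.112. *Gm42793*, a predicted gene on the same strand, overlaps *Spp1*, and expected counts of *Spp1* were fractional in 4 of 12 mice.

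*Clu* (ENSMUSG00000022037.15, chr14:65968483-65981547, plus strand) had a CPM of 220 at the lowest, 240.4 at the median and 271 at the highest in vehicle mice. The SK-124 mice ran from 252 through a median of 289 to 363. Mice 1, 3, 5 and 6 lay above the vehicle range, with mouse 5 the highest, while mice 2 and 4 lay inside it. The increase, 0.29 ± 0.079 on the log2 scale (FDR = 0.0115, edgeR), was the smallest of the 4 at 1.22-fold, and the exact permutation p was 0.00649. Scaling by library totals only gave 0.18 with an FDR of 0.154, and limma on log2(TPM + 1) gave 0.14 with 0.429.

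**Figure D1:**
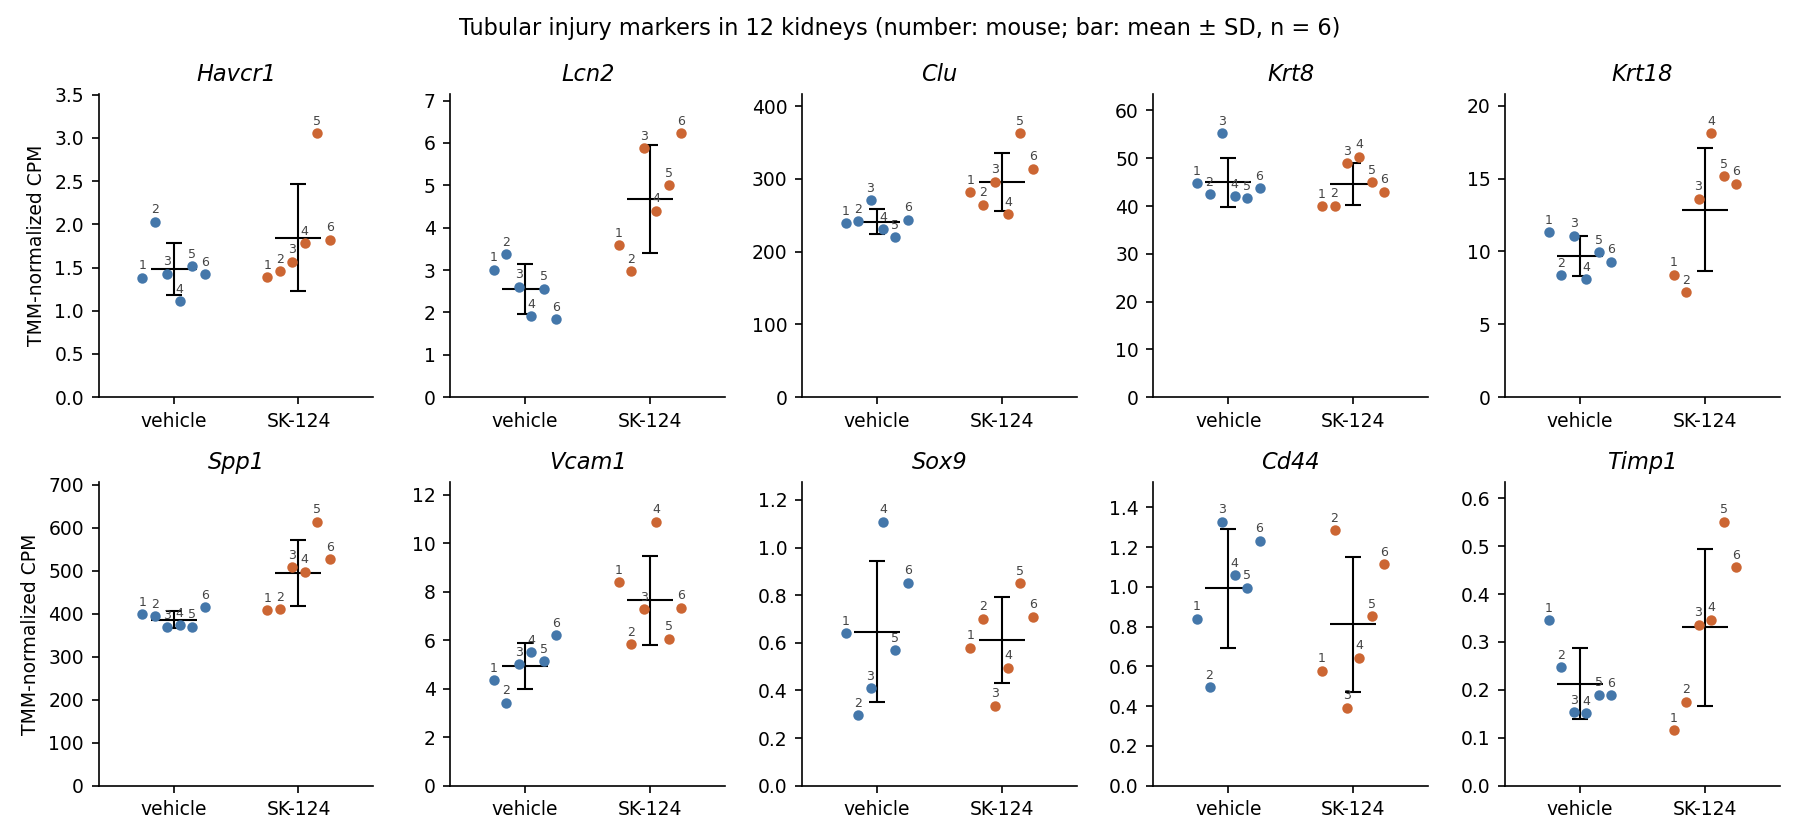
TMM-normalized CPM (y axis, from 0) of each of the 10 markers in 6 vehicle (blue) and 6 SK-124 (orange) mice; each point is 1 mouse with its number, and bars give mean ± SD. For *Lcn2*, 5 of the 6 SK-124 mice sit above every vehicle mouse, for *Spp1*, *Clu*, *Krt18* and *Vcam1* 4 of 6, and *Krt8*, *Sox9* and *Cd44* have none above.

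The keratin partners are described together, since their proteins assemble with each other. *Krt18* (ENSMUSG00000023043.7, chr15:102028180-102032027, plus strand), the type I partner, had a CPM of 8.12 at the lowest, 9.62 at the median and 11.3 at the highest in vehicle mice, and 7.19, 14.1 and 18.1 in SK-124 mice. Mice 1 and 2 of the SK-124 group, at 8.40 and 7.19, lay near or below the lowest vehicle mouse, and mice 3 to 6, at 13.6, 18.1, 15.2 and 14.6, were above all of them. The log2 difference of 0.42 ± 0.18 (95% interval 0.04 to 0.79) did not pass, with an FDR of 0.103 by edgeR and an exact permutation p of 0.158. Leaving out SK-124 mouse 1 gave 0.51 with an FDR of 0.0374, and leaving out mouse 2 gave 0.54 with 0.0154. SK-124 mice 4 to 6 alone gave 0.73 with 0.000529, and mice 1 to 3 alone gave 0.01 with 0.978.

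*Krt8* (ENSMUSG00000049382.10, chr15:101996698-102004482, minus strand), the type II partner, was more abundant. Its CPM was 41.6 at the lowest, 43.1 at the median and 55.3 at the highest in vehicle mice, against 39.96, 44.0 and 50.3 in SK-124 mice. The groups overlapped throughout, and vehicle mouse 3 was the highest of all 12. SK-124 over vehicle gave a log2 value of -0.01 ± 0.079 (FDR = 0.930, edgeR), with a 95% interval of -0.18 to 0.15. Expected counts of *Krt8* were fractional in 12 of 12 mice, so RSEM divided some of its reads with other genes, and its values are less certain for that. Those of *Krt18* were whole in every mouse.

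Keratins are also abundant in urothelium, which a whole kidney may hold in part. The 7 urothelial markers summed to 19.77 to 34.8 CPM in vehicle mice and 10.2 to 46.2 CPM in SK-124 mice. By edgeR 0 of 7 were called, with 1 higher at an unadjusted p under 0.05 and 0 by DESeq2. Of all genes edgeR called 10.8% higher and 13.5% lower. The median log2 fold change of the 7 was 0.47 with SK-124 mice 4 to 6 alone and -0.03 with mice 1 to 3 alone. The part of urothelium in the *Krt18* values was not tested.

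*Havcr1* (ENSMUSG00000040405.13, chr11:46735080-46779578, plus strand) is the marker most specific to the injured proximal tubule, and it was scarce here, with 22 to 61 expected counts per mouse. Its CPM was 1.11 at the lowest, 1.43 at the median and 2.03 at the highest in vehicle mice, and 1.39, 1.68 and 3.06 in SK-124 mice. Only SK-124 mouse 5 lay above the vehicle range. Its difference of 0.33 ± 0.20 on the log2 scale did not pass (FDR = 0.272, edgeR), with a 95% interval of -0.10 to 0.75 and an exact permutation p of 0.216. Without mouse 5 the log2 fold change was 0.12, and on the TPM scale it turned negative, at -0.22 with an FDR of 0.316 by limma on log2(TPM + 1).

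TPM divides by the transcript length that RSEM assigns, and this length also differed between the groups in *Havcr1*. RSEM gives each gene a length that is the mean over its transcripts, weighted by their estimated shares. For *Havcr1* this length was 963 bases at the lowest, 1217 at the median and 1422 at the highest in vehicle mice, and 1509, 1577 and 1951 bases in SK-124 mice. All 6 SK-124 mice had a longer value than all 6 vehicle mice, which 0.274% of the 12054 genes with a variable length also showed. The log2 difference of the length was 0.46 (standard error 0.11), and it did not pass, with an FDR of 0.305 by limma over those genes, of which 0.0415% passed. GENCODE M21 lists 4 transcripts of the gene, 3 with 8 exons and lengths of 1892, 2030 and 1982 bases, and a short one with 4 exons and 565 bases, which ends at 46756245. With so few reads per mouse, the assignment to transcripts is imprecise.

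**Figure D2:**
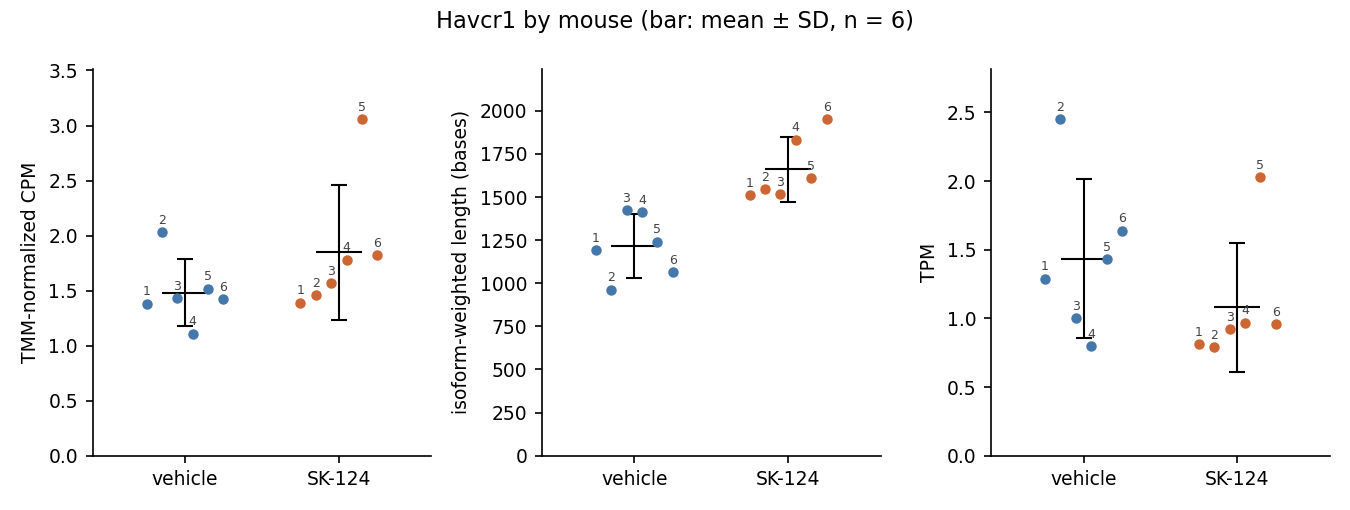
*Havcr1* in each mouse as TMM-normalized CPM (left), isoform-weighted length in bases (middle) and TPM (right), all y axes from 0; points are mice with their numbers and bars mean ± SD, n = 6. The length is at least 1509 bases in the SK-124 mice and at most 1422 bases in the vehicle mice, while CPM and TPM overlap.

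The lengths of the other markers overlapped between the groups. *Lcn2* averaged 910.2 bases in vehicle and 922 bases in SK-124 mice (FDR = 0.856, limma), and *Cd44*, the gene with the most splice forms here together with *Clu*, averaged 4438 and 3934 bases (FDR = 0.946). *Krt8*, *Krt18* and *Sox9* have 1 transcript each in the files, so their length did not vary.

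The 3 remaining markers had few reads. *Sox9* (ENSMUSG00000000567.5, chr11:112782224-112787760, plus strand) had a CPM of 0.297 at the lowest, 0.606 at the median and 1.11 at the highest in vehicle mice, and 0.336, 0.640 and 0.852 in SK-124 mice. Every SK-124 mouse lay inside the vehicle range. edgeR gave -0.07 ± 0.30 on the log2 scale (FDR = 0.892), with a 95% interval of -0.71 to 0.56.

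*Cd44* (ENSMUSG00000005087.17, chr2:102811141-102901665, minus strand) had a CPM of 0.496 at the lowest, 1.03 at the median and 1.33 at the highest in vehicle mice, and 0.392, 0.748 and 1.29 in SK-124 mice. SK-124 mouse 3 was the only one below the vehicle range. The difference was -0.29 ± 0.28 on the log2 scale (FDR = 0.4996, edgeR), with a 95% interval of -0.87 to 0.30. At 6 to 26 expected counts per mouse, the intervals of *Sox9* and *Cd44* hold differences as large as that of *Clu* in either direction.

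*Timp1* (ENSMUSG00000001131.11, chrX:20870166-20874735, plus strand), which overlaps *Syn1* on the opposite strand, had 2 to 11 expected counts per mouse and did not pass the expression filter. Its CPM was 0.151 at the lowest, 0.190 at the median and 0.346 at the highest in vehicle mice, and 0.116, 0.341 and 0.551 in SK-124 mice. Mice 4 to 6 of the SK-124 group lay above the vehicle range and mouse 1 below it. The exact permutation p was 0.165, and with no filter on low counts edgeR gave a log2 fold change of 0.64 with an FDR of 0.354. No difference was detectable at this depth.

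**Figure D3:**
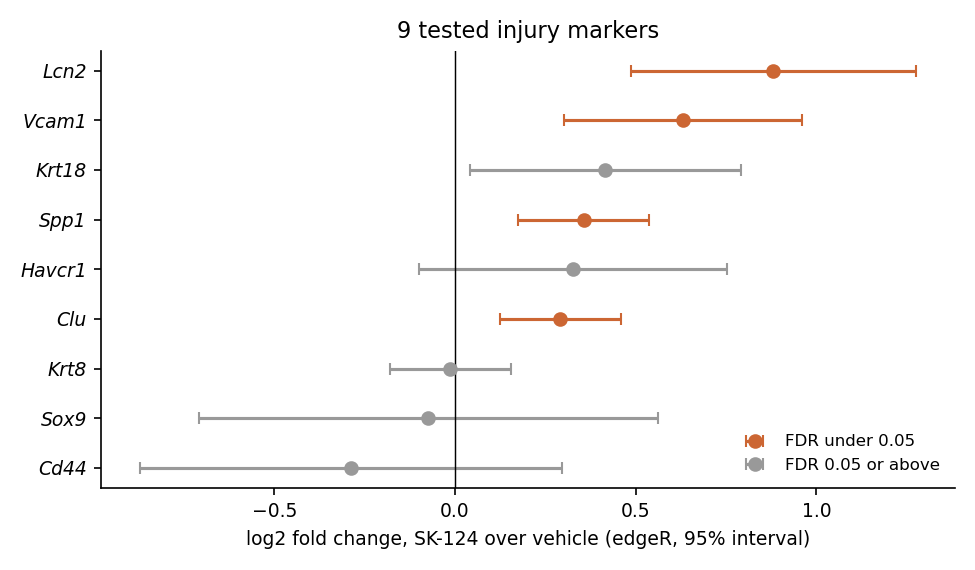
Log2 fold change of SK-124 over vehicle (x axis) with its 95% interval for the 9 tested markers, ordered by size; orange marks an FDR under 0.05 by edgeR and grey 0.05 or above. The intervals of *Lcn2*, *Vcam1*, *Spp1* and *Clu* lie above 0 with the FDR passed, *Krt18* reaches down to 0.04, and *Sox9* and *Cd44* have the widest intervals.

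The SK-124 mice differed in how many markers were high. SK-124 mice 5 and 6 each had 6 of the 10 markers above the highest vehicle mouse, mice 3 and 4 had 5, mouse 1 had 3 and mouse 2 had 0. Mouse 5 was the highest of its group for 5 markers, *Havcr1*, *Clu*, *Spp1*, *Sox9* and *Timp1*. Mouse 1 was the lowest of its group for 4 markers and mouse 2 for 3. With SK-124 mice 1 to 3 alone against all vehicle mice, *Clu* and *Vcam1* were called, 2 markers in all, and *Lcn2* had an FDR of 0.0528. With mice 4 to 6 alone 5 were called, *Krt18* included. Of all genes tested, 7.34% and 8.06% were called higher in these fits. The difference between the first and last 3 mice was not tested. In mice 1 to 3 the share of reads in the top 10 genes was also above the vehicle range, and nothing in the labels names a batch.

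**Figure D4:**
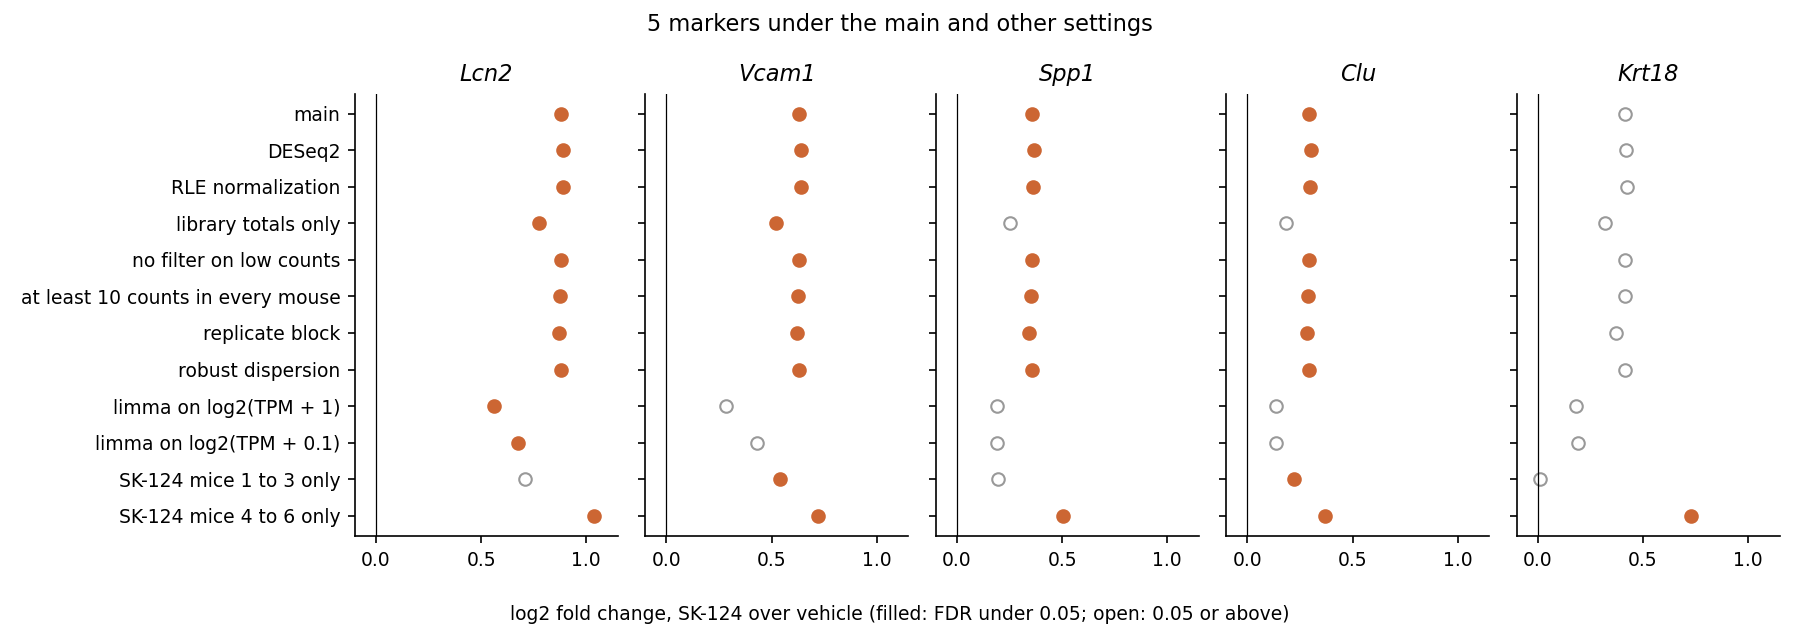
Log2 fold change of SK-124 over vehicle (x axis) of *Lcn2*, *Vcam1*, *Spp1*, *Clu* and *Krt18* under the main settings and 11 others (y axis); filled points have an FDR under 0.05 and open points 0.05 or above. Every point is above 0, and the calls of *Spp1* and *Clu* are open with library totals only and on both TPM scales.

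Scaling matters to the smaller increases. Without TMM, the log2 fold change over all genes had a median of -0.12 with library totals only and -0.11 and -0.14 on the 2 TPM scales, against -0.005 with TMM. The share of higher genes among all calls was 44.5% with TMM, 20.3% with library totals only and 19.0% on either TPM scale. The values of *Clu* and *Spp1* are read against these medians, and with library totals only they were 0.18 and 0.25. *Lcn2* was called on all these scales, and *Vcam1* with library totals only but on neither TPM scale.

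Sequences upstream of the markers are given for the 2 called genes with a window at their main start and for *Krt18*, the only marker with a match to a searched motif. RefSeq windows, which run from 250 bases before to 50 bases after a transcript start, were found for 7 of the 10 markers, 10 windows in all, and *Clu*, *Vcam1* and *Sox9* had none. Each stretch below reads 5′ to 3′ on the strand of the gene, on GRCm38.p6, and ends before an annotated GENCODE M21 start of the gene, at 32387797 in *Lcn2*, 104435118 in *Spp1* and 102028180 in *Krt18*. Another *Lcn2* transcript starts further upstream, at 32388252. Capitals mark the match to the NF-kB consensus.
Lcn2 (chr2:32387798-32387989, minus strand): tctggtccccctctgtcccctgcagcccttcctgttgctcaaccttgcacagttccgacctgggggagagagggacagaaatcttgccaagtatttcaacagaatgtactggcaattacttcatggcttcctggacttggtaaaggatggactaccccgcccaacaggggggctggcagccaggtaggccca
Spp1 (chr5:104434861-104435110, plus strand): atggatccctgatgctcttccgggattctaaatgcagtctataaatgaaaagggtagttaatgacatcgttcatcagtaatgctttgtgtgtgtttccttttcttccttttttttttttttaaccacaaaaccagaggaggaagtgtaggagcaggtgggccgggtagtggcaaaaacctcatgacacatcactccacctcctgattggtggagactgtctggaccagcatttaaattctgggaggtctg
Krt18 (chr15:102027966-102028179, plus strand): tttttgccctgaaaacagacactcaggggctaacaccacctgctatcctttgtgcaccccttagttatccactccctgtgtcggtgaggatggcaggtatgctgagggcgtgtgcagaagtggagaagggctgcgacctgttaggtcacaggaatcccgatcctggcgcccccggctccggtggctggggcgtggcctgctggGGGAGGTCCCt

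The capital letters in *Krt18* span chr15:102028169-102028178, begin 11 bases before the annotated transcript start and match on both strands. An NF-kB consensus match was present in 8.46% of 32851 RefSeq promoter windows. The cAMP response element TGACGTCA, found in 1.79% of windows, the AP-1 site TGACTCA (5.20%), the STAT site TTCNNNGAA (8.30%) and the FoxO site GTAAACA (3.65%) were searched on both strands and were in none of the 10 windows. A match is a description of letters in this stretch and says nothing about binding.

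Other genes known to rise in acutely injured tubules had increases of up to 3.39 on the log2 scale. Of 30 such genes 28 were tested, and edgeR called 11 higher (39.3% of those tested) and 0 lower, beside 10.8% and 13.5% of all genes. At an unadjusted p under 0.05 1 was lower, and DESeq2 called 0 lower. With library totals only, 9 were higher and 2 lower, beside 5.49% and 21.6% of all genes tested. On either TPM scale 8 were higher and 2 lower, beside 3.5% and 15% of all genes. The list medians were 0.08 and 0.12 there, against -0.11 and -0.14 over all genes. With the main settings the median log2 fold change of the list was 0.27, against -0.005 over all genes tested. This list too was chosen with earlier results of these data known, and its counts are a description. *Hmox1*, which encodes the heme-degrading enzyme heme oxygenase-1, had a CPM of 18.5 to 23.1 in vehicle mice and at least 133 in SK-124 mice, and rose by 3.39 (standard error 0.30, FDR = 2.54e-07, edgeR). Mouse 5 reached 519.5 CPM, and all 6 SK-124 mice were above all vehicle mice.

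The chemokine gene *Cxcl1*, which draws neutrophils, rose by 2.35 on the log2 scale (FDR = 0.00033) from a vehicle mean of 0.319 CPM. *Fga*, the fibrinogen alpha chain that injured tubules make, rose by 1.76 (FDR = 1.25e-06). The genes of the other fibrinogen chains, *Fgb* and *Fgg*, had 0.41 and 0.30 and were not called (FDR = 0.437 and 0.128). *Tnfrsf12a*, the receptor for TWEAK, rose by 1.48 (FDR = 2.27e-06). *Plaur*, the urokinase receptor, rose by 1.07 (FDR = 0.000469, all by edgeR). All 6 SK-124 mice lay above all vehicle mice for *Hmox1*, *Fga*, *Tnfrsf12a*, *Cxcl1* and *Plaur*. *Cp*, *Csf1*, *Lgals3* and *S100a10* were also called higher, at 0.27 to 0.81, although *S100a10* was not called when vehicle mouse 2, 4, 5 or 6 or SK-124 mouse 3, 4, 5 or 6 was left out. *Csf1* and *S100a10* were not called with library totals only, on either TPM scale or with SK-124 mice 1 to 3 alone.

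Genes that healthy tubules use for transport and metabolism were also read. Of 19 such genes 1 fell (5.26%) and 0 rose by edgeR, beside 13.5% and 10.8% of all genes. At an unadjusted p under 0.05 1 was higher, DESeq2 called 0 higher, and the median log2 fold change was 0.004. *Slc13a3*, the dicarboxylate transporter of the basolateral membrane, fell by 0.27 on the log2 scale (standard error 0.064, FDR = 0.00527, edgeR), from 391 ± 9.60 to 325 ± 33.4 CPM (SD, n = 6 each). *Gatm*, of creatine synthesis, had a log2 fold change of -0.25 (FDR = 0.0801). *Umod*, which encodes uromodulin, and *Slc12a1*, the sodium, potassium and chloride cotransporter of the loop of Henle, had 0.21 and 0.16 (FDR = 0.0879 and 0.211). With library totals only, 4 of the 19 were called lower, beside 21.6% of all genes tested under that scaling. On either TPM scale 4 were called lower, beside 15% of all genes. The median of the 19 was -0.153 there, against -0.11 and -0.14 over all genes on the 2 scales.

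Genes of dedifferentiated or failed-repair tubules had 2 of 13 called higher (15.4%) and 3 lower (23.1%), beside 10.8% and 13.5% of all genes, and a median log2 fold change of 0.02. With library totals only, 1 was higher and 4 lower, beside 5.49% and 21.6% of all genes. *Itgb6*, the integrin subunit that activates TGF-beta, fell by 1.53 (standard error 0.079, FDR = 3.38e-10, edgeR), from 54.0 to 69.6 CPM over the vehicle mice to 18.2 CPM at the lowest and 22.4 at the median in SK-124 mice, and the groups did not overlap. The developmental regulator *Pax2* fell by 0.51 and the intermediate filament gene *Vim*, which rises in dedifferentiated tubule cells, fell by 0.38 (FDR = 0.00321 and 0.00814). *Vim* was not called with SK-124 mice 4 to 6 alone (FDR = 0.161, edgeR), and which cells carried its reads was not tested. *Icam1*, a leukocyte adhesion molecule like *Vcam1*, rose by 0.70 (FDR = 7.6e-05), in 6 of 6 mice above the vehicle range, and *Cd24a* rose by 0.27 (FDR = 0.00972). *Cd24a* was not called with library totals only, on either TPM scale or with SK-124 mice 4 to 6 alone.

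Cell death genes had 2 of 12 tested called higher (16.7%) and 1 lower (8.33%), beside 10.8% and 13.5% of all genes, with a list median of -0.03. With library totals only, 2 were higher and 2 lower, beside 5.49% and 21.6% of all genes. *Bbc3*, which encodes the pro-apoptotic protein PUMA, rose by 0.79 (FDR = 0.00227, edgeR), and *Pmaip1*, which encodes NOXA of the same class, fell by 0.76 (FDR = 0.00121). *Acsl4*, an acyl-CoA synthetase of ferroptosis, rose by 0.39 (FDR = 5.18e-05) and was not called on either TPM scale.

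Of the receptors and partners of the marker proteins, 3 of 18 tested were called higher (16.7%) and 5 lower (27.8%), beside 10.8% and 13.5% of all genes, with a median log2 fold change of -0.12. The lower calls numbered 2 without vehicle mouse 2, 4 or 5 or SK-124 mouse 3 or 5, and 3 with the replicate block. With library totals only they numbered 7, beside 21.6% of all genes. The higher calls numbered 0 on both TPM scales, beside 3.5% of all genes. The osteopontin receptor subunits *Itgav* and *Itgb3* rose by 0.37 and 1.07 (FDR = 0.000583 and 0.00247, edgeR), each with all SK-124 mice above all vehicle mice. The hyaluronidase gene *Hyal2* fell by 0.26 (FDR = 0.0076), whereas *Hyal1* rose by 0.30 (FDR = 0.00866). Neither was called with SK-124 mice 4 to 6 alone, and *Hyal1* was also not called with library totals only. *Timp3*, a relative of *Timp1* bound to matrix, fell by 0.41 (FDR = 0.00235) from 1605 ± 194 to 1209 ± 137 CPM (SD, n = 6 each). *Slc22a17*, the NGAL receptor, had a log2 fold change of -0.20 (FDR = 0.0406), and its call was lost in 10 of the 12 fits that left out 1 mouse.

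Among cytokine receptors and signal factors that act upstream of the markers, 11 of 21 tested were called higher (52.4%) and 4 lower (19.0%). Of all genes 10.8% and 13.5% were so called, and the list had a median log2 fold change of 0.34. The list was chosen with earlier results of these data known, so its excess is a description and not a test. On the TPM scales 7 were called higher and 4 lower, beside 3.5% and 15% of all genes. The list medians were 0.08 and 0.11 there, against -0.11 and -0.14 over all genes. *Socs3*, the feedback inhibitor of STAT3 signalling, rose by 3.28 (standard error 0.16, FDR = 1.61e-10, edgeR), from a vehicle median of 2.06 CPM to 19.5. *Osmr*, the oncostatin M receptor, rose by 1.92 and *Stat3* by 1.12 (FDR = 3.29e-08 and 6.25e-09). *Nfkbia*, the inhibitor that NF-kB induces, rose by 1.32, the EGF receptor ligand *Hbegf* by 1.41 and *Il1b* by 1.76 (FDR = 3.62e-07, 2.89e-05 and 0.000277). In all 6 of these genes every SK-124 mouse was above every vehicle mouse. The 4 that fell were *Tgfbr2*, *Notch2*, *Jag1* and *Hes1*, by 0.34 to 0.54.

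**Figure D5:**
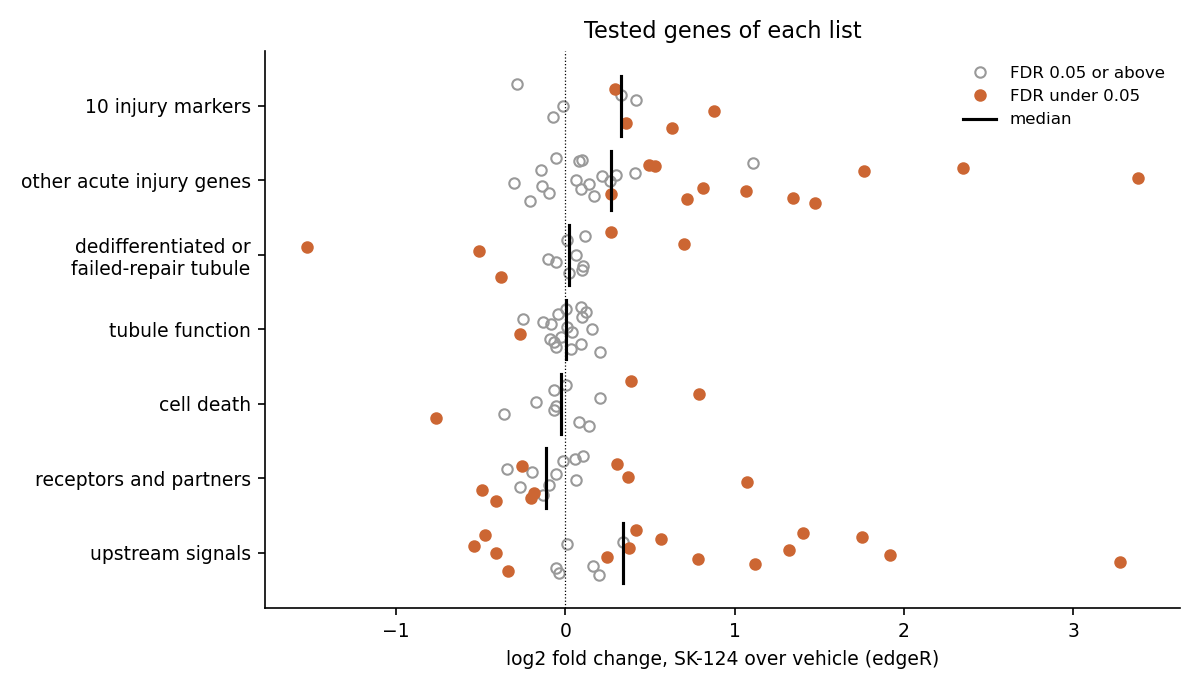
Log2 fold change of SK-124 over vehicle (x axis) for every tested gene of 7 lists (y axis, spread vertically by name only); filled orange points have an FDR under 0.05, open grey points 0.05 or above, and black lines are medians. The medians of the marker list and the other acute injury genes are 0.33 and 0.27, and that of the tubule function genes is 0.004.

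The makeup of the tissue was read from fixed markers, whose calls are set beside the 10.8% of all genes called higher and 13.5% lower. The 6 proximal tubule markers were abundant, at a summed 22740 to 32480 CPM in vehicle mice and 24610 to 32810 CPM in SK-124 mice, as the labelled tissue has, and 0 of 6 were called by edgeR, with 0 at an unadjusted p under 0.05 and 0 by DESeq2. *Cldn16* of the thick ascending limb rose by 0.50 (FDR = 0.00088, not called on the TPM scales). In the collecting duct the water channel gene *Aqp2* rose by 0.75, while *Hsd11b2* and *Slc4a1* fell by 0.35 and 0.59 (FDR = 0.000852, 9.99e-05 and 0.000123). Of the 5 markers of podocytes and parietal epithelium, 2 were called higher, *Akap12* among them by 1.49 (FDR = 9.18e-08, all by edgeR), and 0 lower. The median log2 fold change of these 5 was -0.006, and at an unadjusted p under 0.05 2 were higher and 2 lower. With library totals only 1 was higher and 2 lower, beside 5.49% and 21.6% of all genes.

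Of 7 stromal markers edgeR called 1 higher and 2 lower, beside 10.8% and 13.5% of all genes. *Pdgfrb* fell by 0.93 and *Col1a2* by 0.45 on the log2 scale (FDR = 5.39e-05 and 0.0158, edgeR). *Col1a2* was not called with SK-124 mice 4 to 6 alone. The lower calls numbered 4 without SK-124 mouse 6, beside 11.5% of all genes in that fit. *Acta2* of smooth muscle had a log2 fold change of 0.41 (FDR = 0.0452), which was not called with library totals only, with robust dispersion, on either TPM scale, or without vehicle mouse 1, 2, 4 or 5 or SK-124 mouse 1, 3, 4 or 6. Of 6 macrophage markers edgeR called 0 higher and 1 lower, *Cd68* by 0.60 (FDR = 0.00213), beside 10.8% and 13.5% of all genes. DESeq2 and RLE scaling each called 1 macrophage marker higher and 1 lower. *Cd68* was not called with SK-124 mice 4 to 6 alone. Of 7 lymphocyte markers only *Cd79a* of B cells was tested, at 2 to 33 expected counts per mouse, and it fell by 1.75 (FDR = 0.000627, edgeR). The 6 macrophage markers summed to 64.8 to 85.2 CPM in vehicle mice and 68.0 to 85.7 CPM in SK-124 mice, and those of lymphocytes to 2.28 to 4.04 and 0.784 to 1.57 CPM. None of the 5 red blood cell markers was called, 0 by edgeR, 0 at an unadjusted p under 0.05 and 0 by DESeq2. The part of any of these cells in the marker values was not tested.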

How the data were processed

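Whole-kidney RNA of 6 vehicle and 6 SK-124 mice was sequenced on a BGISEQ500 instrument, 1 library per mouse. The authors deposited an RSEM gene table per mouse, with expected counts (estimated reads per gene, not normalized) and TPM scaled by RSEM to length and library total. The submitters' processing notes name FastQC, STAR 2.7.2b, RSEM 1.3.0, DESeq2 and mm10. The deposited length column holds the isoform-weighted transcript length. Gene symbols came from GENCODE M21, matched with version for 54349 of 55401 identifiers, all 10 markers among them.

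Expected counts were rounded, scaled with TMM, filtered with filterByExpr and tested with edgeR 4.0.16 (R 4.3.3) on treatment only, because the replicate numbers belong to different mice and the paper names no design. Lengths were tested on the log2 scale with limma 3.58.1, where 12054 genes varied. For single genes, log2(CPM + 0.5) was compared by exact two-sided permutation with scipy 1.17.1. The edgeR and DESeq2 tests, and limma on log2(CPM + 1), were first tried on simulated counts. Alternatives were DESeq2 1.42.0, RLE scaling, library totals only, other filters, robust dispersion, a replicate block, log2(TPM + 1) or log2(TPM + 0.1) in limma, omission of single mice and parts of the SK-124 group. From each list of genes, the 4 with the smallest p and every called gene past a log2 fold change of 1 are named, with every called cell type marker. Some genes that this rule names are not reported here. Other called genes were named after their values were seen. The markers and lists were chosen with earlier results of these data known. Depth was 19244227 to 19771802 expected counts per mouse, which limits genes with few reads.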

Additional observations from a re-analysis of the deposited data

Results flagged for a closer look

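Among 114 sets of 6 mice, 14 had a highest or lowest mouse that stood apart from the other 5 by Dixon's test at 95%, which flags about 1 in 20 sets by chance. Of the injury markers, *Havcr1* stood out in SK-124 mouse 5, at 3.06 CPM, and *Krt8* in vehicle mouse 3, at 55.3 CPM. By isoform-weighted length, *Vcam1* was short in vehicle mouse 1, at 3229 bases, and *Timp1* in vehicle mouse 6, at 856 bases.

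Vehicle mouse 3 was also apart with 137.6 CPM of *Hsd11b2*, the highest, and 44.4 CPM of *Itgav*, the lowest. Vehicle mouse 5 had the highest *S100a8*, *S100a9* and *Aqp2* of its group, at 0.569, 0.474 and 143 CPM. SK-124 mouse 5 had the highest *Hmox1*, at 519.5 CPM, and the highest *Slc4a1*, at 41.9 CPM. In SK-124 mouse 4 *Bbc3* reached 4.36 CPM, and in mouse 6 *Col1a2* reached 44.8 CPM. *Pdgfrb* was lowest in SK-124 mouse 3, at 8.12 CPM.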

How the results depend on the processing

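The count of 4 markers called higher was unchanged under DESeq2, RLE scaling, a minimum of 10 counts per mouse, robust dispersion and the fit without a low-count filter, and was 3 at an FDR under 0.01. It was 2 with library totals only, 1 on either TPM scale, 2 with SK-124 mice 1 to 3 and 5 with mice 4 to 6. The shares of all genes called higher in these fits were 5.49%, 3.5%, 7.34% and 8.06%. Leaving out each mouse gave 4 to 5 markers. No marker was called lower under any of these. *Timp1* has a value only without the low-count filter and by DESeq2, and *Sox9* and *Cd44* have none with a minimum of 10 counts. The replicate numbers did not pair the mice (correlations of same-numbered mice from -0.13 to 0.22), and the replicate block left 4 markers called higher. Across all genes, higher calls numbered 777 with library totals only, 500 and 498 on the TPM scales, against 1536, and lower calls 3058 with library totals only, 1233 with SK-124 mice 1 to 3 and 1267 with mice 4 to 6, against 1917. The cause was not tested.

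Signs of the fold changes turned only where the markers were not called. *Havcr1* was -0.22 and -0.37 with limma on log2(TPM + 1) and log2(TPM + 0.1), and -0.0064 with SK-124 mice 1 to 3. *Krt8* was 0.043 and *Sox9* 0.087 with SK-124 mice 4 to 6. Leaving out 1 mouse gave -0.050 to 0.055 for *Krt8* and -0.22 to 0.14 for *Sox9*. For the log2 length differences, leaving out 1 mouse gave -0.020 to 0.0087 for *Clu* and -0.00053 to 0.00020 for *Spp1*. Their signs turned in 4 and 3 of 12 such fits. The 4 calls held with every mouse left out in turn. Depth limits *Sox9*, *Cd44*, *Timp1* and *Havcr1*, with at most 61 expected counts per mouse.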
